A study of Homo sapiens with 21 samples.

Results

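The endothelin genes are 7 of the 60728 genes in the deposited table, taken by symbol: the ligand genes EDN1, EDN2 and EDN3, the receptor genes EDNRA and EDNRB, and the converting enzyme genes ECE1 and ECE2. They were followed in SK-N-BE(2), an established human neuroblastoma cell line, in 21 RNA-Seq libraries made 72 h after lentiviral transduction with short hairpin RNAs (shRNAs). The series holds 7 conditions of 3 libraries each: Control, which is a non-silencing shRNA, the combinations shARID1A/B.2.3 and shARID1A/B.4.2, and the single shRNAs shARID1B.2 with shARID1B.3 and shARID1A.2 with shARID1A.4, named for their targets ARID1A, ARID1B or both. ARID1A and ARID1B are alternative structural subunits of the BAF chromatin remodeller. All conditions share 1 cell line, 1 time point and viral transduction, and the p-values measure only the spread between libraries, which may be technical. The genes were chosen by the measured fall of EDN3 against Control in each silenced group, so the values of EDN3 against Control are given as a description, without a test.

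Endothelins are short vasoactive peptides cut from longer precursors. Furin-like proteases release an inactive intermediate, and the membrane metalloproteases ECE1 and ECE2 cut it to the active peptide. EDNRA and EDNRB are G protein-coupled receptors: EDNRA prefers the products of EDN1 and EDN2, and EDNRB binds all the ligands. In the embryo, EDN3 and EDNRB act on neural crest cells that become enteric neurons and melanocytes, and EDN1 and EDNRA pattern the jaw. Neuroblastoma arises from the sympathoadrenal branch of the neural crest.

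The ligand genes encode closely related peptides, which is why their mature coding stretches are shown side by side. The stretches were read 5′ to 3′ from the GENCODE 29 transcripts on GRCh38, and each lies in exon 2 of its gene. Capitals mark the 4 cysteine codons. EDN1 is at chr6:12292433-12292495 on the plus strand, EDN2 at chr1:41484061-41484123 on the minus strand and EDN3 at chr20:59301646-59301708 on the plus strand.
EDN1: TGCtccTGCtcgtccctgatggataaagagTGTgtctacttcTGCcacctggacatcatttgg
EDN2: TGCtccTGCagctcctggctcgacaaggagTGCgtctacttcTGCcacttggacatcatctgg
EDN3: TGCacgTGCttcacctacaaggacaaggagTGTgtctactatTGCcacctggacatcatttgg
Each stretch has 63 bases for 21 residues. EDN1 and EDN2 share 51 bases and 19 residues, EDN1 and EDN3 share 50 bases and 15 residues, and EDN2 and EDN3 share 48 bases and 15 residues. The precursors differ more in length, with 212 residues for EDN1, 178 for EDN2 and 238 for EDN3.

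The genes lie apart on GRCh38. EDN1 spans chr6:12290363-12297194, EDN2 chr1:41478775-41484673, EDN3 chr20:59300427-59325992, EDNRA chr4:147480917-147544954, EDNRB chr13:77895481-77975529, ECE1 chr1:21217247-21345572 and ECE2 chr3:184276011-184293031. EDN2, EDNRB and ECE1 are on the minus strand and the others on the plus strand. ECE2 shares part of its exons with the read-through gene EEF1AKMT4-ECE2, so its reads could be split between both gene models.

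Values are the deposited normalized reads, which are reads divided by 1 size factor per library. Depth ranged from 27954334 to 41077638 reads per library. Of the 8 adrenergic neuroblastoma markers, including HAND2 and ISL1, none was at 0 in all libraries of a condition. The melanocyte markers TYR and MLANA, the glial marker SOX10 and the endothelial marker TIE1 were at 0 in all 21 libraries.

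The targeted genes did not follow every label. ARID1A ran from 6097 to 6463 normalized reads in Control, from 2109 to 2289 in the libraries labelled shARID1A, from 1882 to 2507 in those labelled shARID1B and from 5352 to 5752 in those labelled shARID1A/B. ARID1B ran from 5791 to 5804 in Control, from 2224 to 3126 in the libraries labelled shARID1A, from 4913 to 6182 in those labelled shARID1B and from 1881 to 2651 in those labelled shARID1A/B. Both transcripts were therefore low in the libraries labelled shARID1A, ARID1A alone was far below Control in those labelled shARID1B, and ARID1B alone in those labelled shARID1A/B. The labels are kept as written, and every direction below belongs to the libraries labelled so.

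EDN3 was lower in all 18 silenced libraries than in any Control library. In Control it stood at 1855, 1751 and 1822 normalized reads. It was 40.7, 37.1 and 36.8 in shARID1A.2 and 99.1, 113 and 90.8 in shARID1A.4. These 6 libraries, in which both ARID1A and ARID1B were low, included the 3 lowest of the series.

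In shARID1B.2 EDN3 was 148, 138 and 142 normalized reads, and in shARID1B.3 it was 194, 95.01 and 182. In shARID1A/B.2.3 it was 354, 295 and 321, and in shARID1A/B.4.2 it was 155, 148 and 129. The second library of shARID1B.3 was thus far below its 2 partners, and shARID1A/B.2.3 kept the highest level of the silenced conditions. The means came to 2.11% of Control in shARID1A.2, 5.58% in shARID1A.4, 7.89% in shARID1B.2, 8.68% in shARID1B.3, 17.9% in shARID1A/B.2.3 and 7.95% in shARID1A/B.4.2. On the scale of log2 of the value plus 1, the differences from Control ran from -5.53 in shARID1A.2 to -2.48 in shARID1A/B.2.3. Ordered by mean, shARID1B.2, shARID1A/B.4.2 and shARID1B.3 did not separate from one another, and each other neighbour in that order stood apart. The low library of shARID1B.3, at 95.01, also lay within the range of shARID1A.4 (90.8 to 113). In bulk RNA, fewer cells that express a gene and less RNA per cell cannot be told apart.

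**Figure D1:**
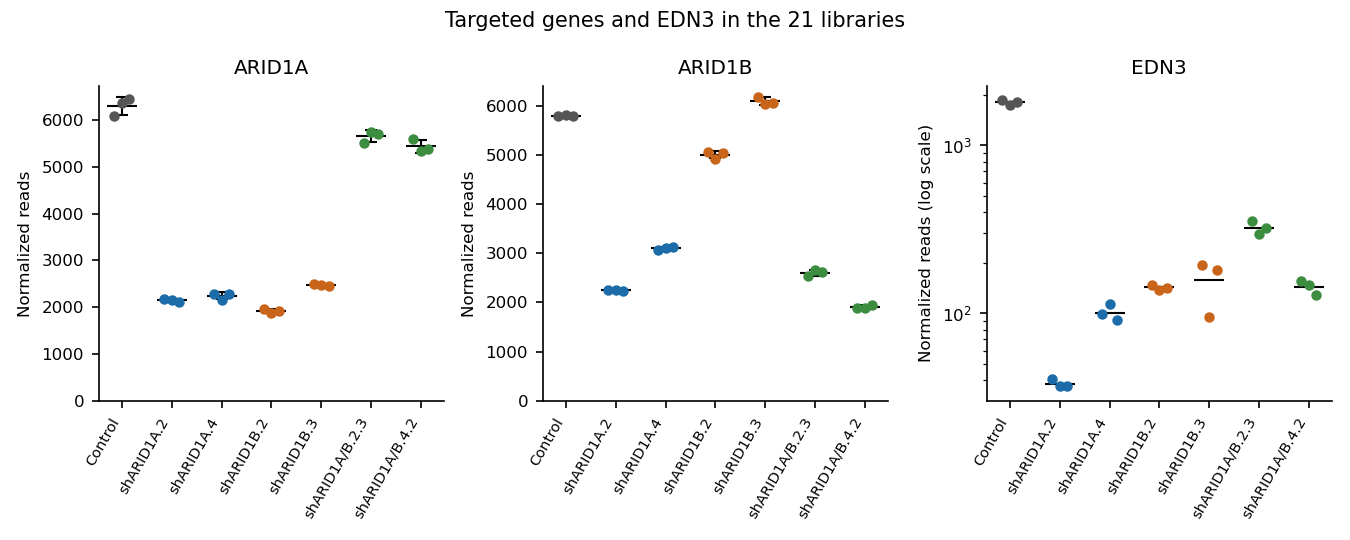
Normalized reads of ARID1A, ARID1B and EDN3 (log axis for EDN3) in each of the 21 libraries, by condition. Points are libraries, horizontal bars are means of 3 and error bars on the linear axes are SD. EDN3 lies between 1751 and 1855 in Control and between 36.8 and 354 in the silenced libraries.

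The direct comparisons between silenced libraries leave Control out. EDN3 was lower in the libraries labelled shARID1A than in those labelled shARID1B by 1.22 ± 0.12 on the log2 scale (SE, 6 libraries against 6, limma adjusted p = 1.0e-09). Against those labelled shARID1A/B the difference was -1.78 ± 0.12 (limma adjusted p = 1.8e-12). EDN3 in those labelled shARID1A/B stood 0.55 ± 0.12 above those labelled shARID1B (limma adjusted p = 1.5e-04). The 6 libraries of a label were also treated as 1 group, so that the spread between its conditions enters the error. EDN3 then kept the first difference (limma adjusted p = 0.0085) and the second (limma adjusted p = 0.00096) but not the third (limma adjusted p = 0.21). Here and in each later fit with a label as 1 group, libraries of 1 condition still counted as independent. These p-values may therefore be too small for the spread between shRNAs.

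Within a label EDN3 also differed. It was lower in shARID1A.2 than in shARID1A.4 by 1.38 ± 0.16 (SE, 3 against 3, limma adjusted p = 4.1e-08) and higher in shARID1A/B.2.3 than in shARID1A/B.4.2 by 1.16 ± 0.16 (limma adjusted p = 6.5e-07). Between shARID1B.2 and shARID1B.3 the difference of -0.07 had a 95% interval from -0.41 to 0.27. Without the second library of shARID1B.3 the EDN3 difference was -0.40 (limma adjusted p = 0.0017).

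EDN1, which encodes the main endothelial vasoconstrictor peptide, was a low transcript and fell in all 6 silenced conditions. It was 28.2, 21.3 and 23.6 normalized reads in Control. Its values were 1.66, 3.09 and 1.11 in shARID1A.2 and 6.80, 2.38 and 3.0 in shARID1A.4. All 18 silenced libraries lay below all Control libraries, which held for 8.60% of the 18584 genes tested.

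The other silenced conditions kept more EDN1. It was 7.88, 13.9 and 11.6 in shARID1B.2, 6.97, 9.50 and 7.77 in shARID1B.3, 10.1, 6.25 and 15.6 in shARID1A/B.2.3, and 6.38, 15.5 and 3.75 in shARID1A/B.4.2. The log2 fold change against Control was -3.15 ± 0.44 in shARID1A.2 (SE, n = 3 and 3, limma adjusted p = 6.2e-07) and -2.42 ± 0.44 in shARID1A.4 (limma adjusted p = 2.8e-05). In the other conditions the EDN1 change ran from -1.60 in shARID1A/B.4.2 to -1.09 in shARID1B.2, with limma adjusted p from 0.0024 to 0.033. The call for EDN1 in shARID1B.2 was lost without Control replicate 1 (adjusted p = 0.095), Control replicate 3 (0.062), shARID1B.2 replicate 1 (0.13) or replicate 3 (0.056), with scaling to total reads (0.059) and with no filter on low counts (0.083). That in shARID1A/B.2.3 was lost without Control replicate 1 (0.062) or shARID1A/B.2.3 replicate 2 (0.11), and with no filter (0.052).

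The fold of so low a gene depends on the pseudocount. As summed reads per size factor, EDN1 in shARID1A.2 rested on 6 reads against 66 in Control, or 8.04% of Control (95% exact interval 2.85 to 18.5%, counting error only). In shARID1A.4 it rested on 12 reads, or 17.2% (8.46 to 32.1%). The shares in the other 4 conditions ran from 33.3% in shARID1B.3 to 44.7% in shARID1B.2.

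EDN2, the gene of the ligand closest to that of EDN1 in sequence, fell in the libraries labelled shARID1A. It was 22.3, 22.4 and 19.5 normalized reads in Control, 2.49, 0 and 1.11 in shARID1A.2, and 2.91, 3.57 and 2 in shARID1A.4. The log2 fold changes were -3.52 ± 0.47 (limma adjusted p = 3.1e-07) and -2.57 ± 0.47 (limma adjusted p = 3.1e-05). These conditions held 4 and 8 reads against 58 in Control, or 6.10% (95% exact interval 1.61 to 16.5%) and 13.1% (5.38 to 27.5%).

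In the other conditions EDN2 lay between. Its values were 18.4, 6.95 and 8 in shARID1B.2, 4.98, 16.2 and 12.1 in shARID1B.3, 12.2, 6.25 and 13.6 in shARID1A/B.2.3, and 8.20, 13.9 and 15 in shARID1A/B.4.2. All of these libraries were below all Control libraries, but none of these conditions passed the test, with EDN2 log2 fold changes from -1.02 to -0.78 and limma adjusted p from 0.063 to 0.14. With only the compared libraries in the fit, EDN2 was lower in all 4 (limma adjusted p = 0.016 to 0.04). Shares of Control by summed reads ran from 50.4% in shARID1A/B.2.3 to 58.2% in shARID1A/B.4.2.

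Like EDN3, EDN1 and EDN2 were lowest in the libraries labelled shARID1A. In these libraries EDN1 lay from 1.11 to 6.80 normalized reads and EDN2 from 0 to 3.57, against 6.97 to 13.9 and 4.98 to 18.4 in those labelled shARID1B, so the labels did not overlap for either gene. Over all genes tested, 7.72% had all 6 libraries labelled shARID1A below all 6 labelled shARID1B. The direct difference between these labels was -1.50 ± 0.31 for EDN1 (limma adjusted p = 1.6e-04) and -2.03 ± 0.33 for EDN2 (limma adjusted p = 8.1e-06). Against the libraries labelled shARID1A/B it was -1.39 ± 0.31 for EDN1 (limma adjusted p = 4.7e-04) and -2.15 ± 0.33 for EDN2 (limma adjusted p = 5.0e-06). With each label as 1 group, limma adjusted p for these 4 differences ran from 0.00037 to 0.0098, so EDN1 and EDN2 kept them. Libraries labelled shARID1A held at most 7 reads of EDN1 and 3 of EDN2, and none reached the cutoff of the filter on low counts. Both genes were thus tested only through groups where they were higher. With no filter these 4 differences were still called. Between the libraries labelled shARID1A/B and shARID1B the 95% interval of the difference was -0.75 to 0.53 for EDN1 and -0.57 to 0.81 for EDN2.

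The windows before the starts of EDN1 and EDN2 were compared, since both genes had their lowest levels in the same libraries. RefSeq windows of 250 bases before a transcript start (GRCh38.p14) were found for 5 of the 7 genes, and not for EDN3 and ECE2. The EDN1 window at chr6:12290111-12290360, plus strand, is 1 of 3 for this gene and the nearest to the GENCODE start. It is shown 5′ to 3′ because it holds the motifs TATAAA and GATAAG, the latter as CTTATC on the other strand, both in capitals.
EDN1 window: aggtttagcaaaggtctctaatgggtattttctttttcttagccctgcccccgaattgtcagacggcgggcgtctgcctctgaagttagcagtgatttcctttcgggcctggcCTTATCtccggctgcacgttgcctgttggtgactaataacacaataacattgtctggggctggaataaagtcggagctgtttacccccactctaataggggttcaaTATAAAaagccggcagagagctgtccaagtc
TATAAA, the TATA box, was found on either strand in 10.7% of all 35116 windows, and GATAAG, bound by GATA factors, in 5.65%. The AP-1 motif TGANTCA (6.57% of windows) and the E-box CANNTG (61.8%) were not found in this EDN1 window. The other 2 EDN1 windows held neither TATAAA nor GATAAG, and the one at chr6:12287769-12288018 held 1 E-box. The EDN2 window at chr1:41484684-41484933, minus strand, held none of these motifs. A match is a description of the letters only.

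EDNRA, the receptor of the EDN1 and EDN2 products, differed between the conditions of each label, and moved in opposite directions in those labelled shARID1A. It was 657, 638 and 649 normalized reads in Control, 373, 351 and 335 in shARID1A.2, and 1009, 1062 and 1043 in shARID1A.4. In shARID1B.2 it was 628, 696 and 672, a range that includes Control, and in shARID1B.3 it reached 1728, 2163 and 1987, the highest of the series. It was 513, 628 and 558 in shARID1A/B.2.3, and 290, 338 and 339 in shARID1A/B.4.2.

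EDNRA fell in shARID1A.2 (log2 fold change -0.87 ± 0.07, limma adjusted p = 1.3e-10) and shARID1A/B.4.2 (-1.01 ± 0.07, limma adjusted p = 1.0e-11). It rose in shARID1A.4 (0.68 ± 0.07, limma adjusted p = 1.3e-08) and shARID1B.3 (1.59 ± 0.07, limma adjusted p = 2.4e-15). Its change in shARID1A/B.2.3 was small (-0.20 ± 0.07, limma adjusted p = 0.022) and was lost in edgeR's quasi-likelihood test (adjusted p = 0.058), with scaling to total reads (0.060), and without shARID1A/B.2.3 replicate 1 (0.15), replicate 3 (0.056) or Control replicate 1 (0.057). In shARID1B.2 the 95% interval of the EDNRA difference was -0.12 to 0.19, and with scaling to total reads it was called higher (0.17, limma adjusted p = 0.048). Opposite calls for the 2 conditions labelled shARID1A were made for 17.1% of all genes tested.

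The size of the EDNRA split within a label was close in shARID1A and shARID1B. The difference was -1.55 ± 0.07 for shARID1A.2 minus shARID1A.4 (limma adjusted p = 1.4e-15), -1.55 ± 0.07 for shARID1B.2 minus shARID1B.3 (limma adjusted p = 2.5e-15) and 0.81 ± 0.07 for shARID1A/B.2.3 minus shARID1A/B.4.2 (limma adjusted p = 5.5e-10). With each label as 1 group, no label differed from Control for EDNRA (limma adjusted p = 0.28 to 0.89).

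EDNRB, the receptor that binds the EDN3 product with the others, was a low transcript. It was 18.8, 7.83 and 15.4 normalized reads in Control. It was 1.66, 1.03 and 0 in shARID1A.2, 0.97, 0 and 5.0 in shARID1A.4, and 2.73, 0 and 0.94 in shARID1A/B.4.2. These 9 libraries all lay below Control. Such separation from Control held for 38.9% of all genes in shARID1A.2, 37.3% in shARID1A.4 and 37.2% in shARID1A/B.4.2.

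EDNRB in the other conditions overlapped Control. It was 14.9, 12.7 and 7.11 in shARID1B.2, 10.95, 6.65 and 11.2 in shARID1B.3, and 9.11, 3.13 and 0.97 in shARID1A/B.2.3. EDNRB fell in shARID1A.2 (-3.02 ± 0.66, limma adjusted p = 2.1e-04), shARID1A.4 (-2.64 ± 0.66, limma adjusted p = 8.8e-04), shARID1A/B.4.2 (-2.88 ± 0.66, limma adjusted p = 4.1e-04) and shARID1A/B.2.3 (-1.71 ± 0.66, limma adjusted p = 0.024). The last call was lost without Control replicate 1 (adjusted p = 0.088) or 3 (0.065), or without shARID1A/B.2.3 replicate 2 (0.054) or 3 (0.16). By summed reads, EDNRB in shARID1A.2 rested on 3 reads against 38 in Control, or 6.99% of Control (95% exact interval 1.38 to 22.0%). In shARID1B.2 the share was 82.3% (50.7 to 133%) and in shARID1B.3 69.0% (41.5 to 114%).

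Of the silenced libraries, those labelled shARID1B had the highest EDNRB means. EDNRB was lower in the libraries labelled shARID1A than in those labelled shARID1B by 2.49 ± 0.46 (limma adjusted p = 4.4e-05), and lower in those labelled shARID1A/B than in those labelled shARID1B by 1.95 ± 0.46 (limma adjusted p = 6.2e-04). ARID1B was closest to its Control level in the libraries labelled shARID1B, and its part in this result was not tested. With each label as 1 group EDNRB kept both differences (limma adjusted p = 0.0012 and 0.0059). No library labelled shARID1A or shARID1A/B reached the cutoff of the filter on low counts, with at most 9 reads each. EDNRB was thus tested only through Control and the libraries labelled shARID1B, where it was higher. With no filter both differences were still called.

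Since EDN1 and EDNRB are typical of endothelial or pigment cells, the markers of those cells are given beside them. The summed level of 8 endothelial markers ran from 51.5 to 102 normalized reads in Control, from 99.7 to 114 in shARID1A.2, from 4.85 to 23.0 in shARID1A.4, from 60.5 to 64.8 in shARID1B.2, from 21.9 to 27.6 in shARID1B.3, from 16.5 to 24.3 in shARID1A/B.2.3 and from 114 to 133 in shARID1A/B.4.2. PECAM1 was at 0 in Control and at most 2.81 in the silenced libraries. VWF alone ran from 39.2 to 59.9 in Control, and KDR reached 55.7 in the silenced libraries. The 6 melanocyte markers summed to 532 to 556 in Control, from 478 to 537 in shARID1A/B.2.3 and up to 2010 in shARID1A.2. TYRP1 alone reached 1708 in the silenced libraries. The sums thus rest largely on single genes, and the part of such cells in the results was not tested.

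ECE1, the main endothelin converting enzyme, varied between the 7 conditions. It was 2640, 2725 and 2545 normalized reads in Control, 952, 984 and 951 in shARID1A.2, and 2497, 2475 and 2427 in shARID1A.4. It was 1406, 1498 and 1454 in shARID1B.2, and 2774, 2906 and 2842 in shARID1B.3. In shARID1A/B.2.3 it was 3265, 3368 and 3465, and in shARID1A/B.4.2 it was 1086, 1049 and 1117.

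Each label thus held 1 condition with ECE1 well below Control and 1 near or above it. ECE1 fell in shARID1A.2 (-1.45 ± 0.03, limma adjusted p = 4.2e-22), shARID1A/B.4.2 (-1.28 ± 0.03, limma adjusted p = 7.8e-21) and shARID1B.2 (-0.86 ± 0.03, limma adjusted p = 4.3e-17). It rose in shARID1A/B.2.3 (0.35 ± 0.03, limma adjusted p = 9.8e-10). In shARID1A.4 (-0.10) and shARID1B.3 (0.11) the ECE1 changes passed the test by limma (adjusted p = 0.012 and 0.0069) but not without Control replicate 2 (0.081) or shARID1A.4 replicate 3 (0.050) or with scaling to total reads (0.061) for the former, and not without Control replicate 3 (0.055) for the latter.

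Direct comparisons within labels gave the same split. The ECE1 differences were -1.36 ± 0.03 for shARID1A.2 minus shARID1A.4 (limma adjusted p = 1.5e-21), -0.97 ± 0.03 for shARID1B.2 minus shARID1B.3 (limma adjusted p = 2.9e-18) and 1.63 ± 0.03 for shARID1A/B.2.3 minus shARID1A/B.4.2 (limma adjusted p = 4.6e-23). In each label the condition with less ECE1 was also that with less EDNRA. Calls in opposite directions against Control, as for ECE1 in the conditions labelled shARID1B and shARID1A/B, were made for 14.5% and 18.5% of all genes. With each label as 1 group, no label differed from Control for ECE1 (limma adjusted p = 0.21 to 0.66).

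ECE2, a related enzyme found mainly in neural tissue, was higher in part of the silenced conditions. It was 56.4, 64.9 and 59.6 normalized reads in Control, 106, 117 and 124 in shARID1A.2, and 220, 178 and 176 in shARID1A.4. In shARID1B.2 it was 103, 88.0 and 96.0, and in shARID1B.3 it was 36.8, 4.75 and 41.5. It was 182, 189 and 185 in shARID1A/B.2.3, and 88.4, 54.1 and 97.4 in shARID1A/B.4.2. The second library of shARID1B.3 and the second of shARID1A/B.4.2 stood below their partners.

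ECE2 rose in shARID1A.4 (1.65 ± 0.42, limma adjusted p = 0.0011), shARID1A/B.2.3 (1.61 ± 0.42, limma adjusted p = 0.0015) and shARID1A.2 (0.93 ± 0.42, limma adjusted p = 0.048), the last lost when any of the 6 libraries compared was left out (adjusted p = 0.067 to 0.10), with a pseudocount of 0.5 (0.056) and with no filter (0.092). It fell in shARID1B.3 (-1.54 ± 0.42, limma adjusted p = 0.0024). Without the second library of shARID1B.3 the ECE2 change was -0.61 (limma adjusted p = 0.0042), and with only the compared libraries in the fit the call was lost (adjusted p = 0.054).

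The read-through gene EEF1AKMT4-ECE2 was above 0 in 4 libraries, at 14.1 in Control replicate 1, 8.24 in shARID1A.2 replicate 2, 17.1 in shARID1B.3 replicate 2 and 23.2 in shARID1A/B.4.2 replicate 2. With its values added, ECE2 ran from 59.6 to 70.5 in Control, from 21.9 to 41.5 in shARID1B.3 and from 77.2 to 97.4 in shARID1A/B.4.2. On these sums, an alternative chosen after seeing the data, ECE2 was also higher than Control in shARID1B.2 (0.55, limma adjusted p = 0.0049) and shARID1A/B.4.2 (0.42, limma adjusted p = 0.025), and the fall in shARID1B.3 was -0.99 (limma adjusted p = 1.2e-05). ECE2 thus was above Control in 5 conditions and below it in 1 on these sums.

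**Figure D2:**
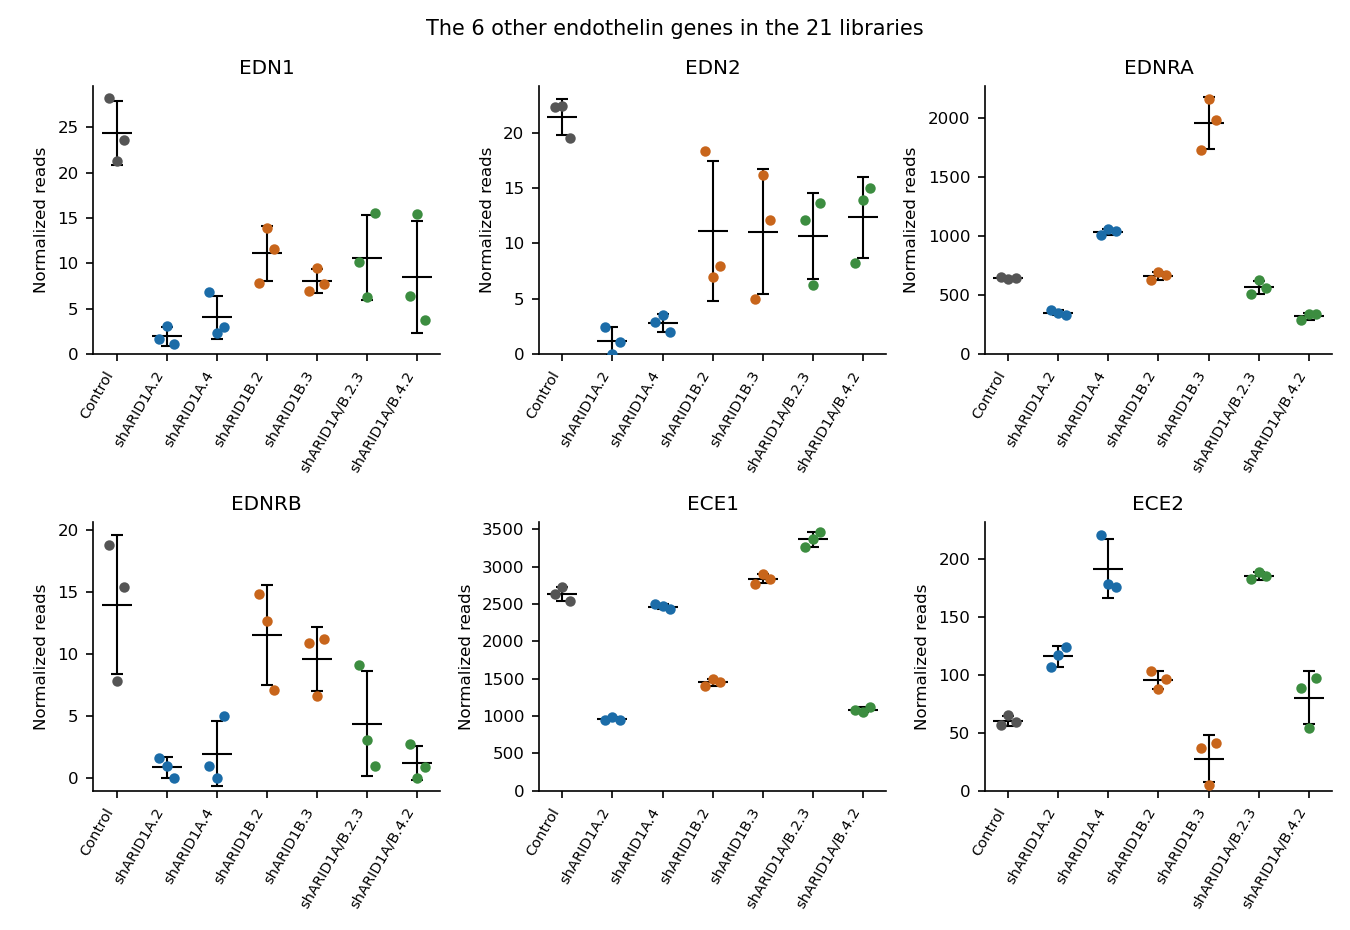
Normalized reads (linear axes) of EDN1, EDN2, EDNRA, EDNRB, ECE1 and ECE2 in each of the 21 libraries by condition. Points are libraries, horizontal bars are means of 3 and error bars are SD. EDN1 and EDN2 lie below Control in all 18 silenced libraries, and EDNRA reaches 1728 to 2163 in shARID1B.3.

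Counted together, the 6 genes other than EDN3 gave 36 pairs of a gene and a silenced condition. Of these 20 (55.6%) were lower and 7 (19.4%) higher than Control, and 9 did not pass the test. Over all 18584 genes tested, 35.1% of such pairs were lower and 34.8% higher. The share of genes called in either direction was 76.1% in shARID1A.2, 73.6% in shARID1A.4, 65.6% in shARID1B.2, 63.9% in shARID1B.3, 69.2% in shARID1A/B.2.3 and 71.2% in shARID1A/B.4.2, so a call alone sets no gene apart. All comparisons with Control share its 3 libraries. EDN1, the only one of the 6 genes called lower in all 6 conditions, did so beside 7.54% of all genes. EDNRA, ECE1 and ECE2 were called lower in some and higher in other conditions, as were 41.8% of all genes.

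**Figure D3:**
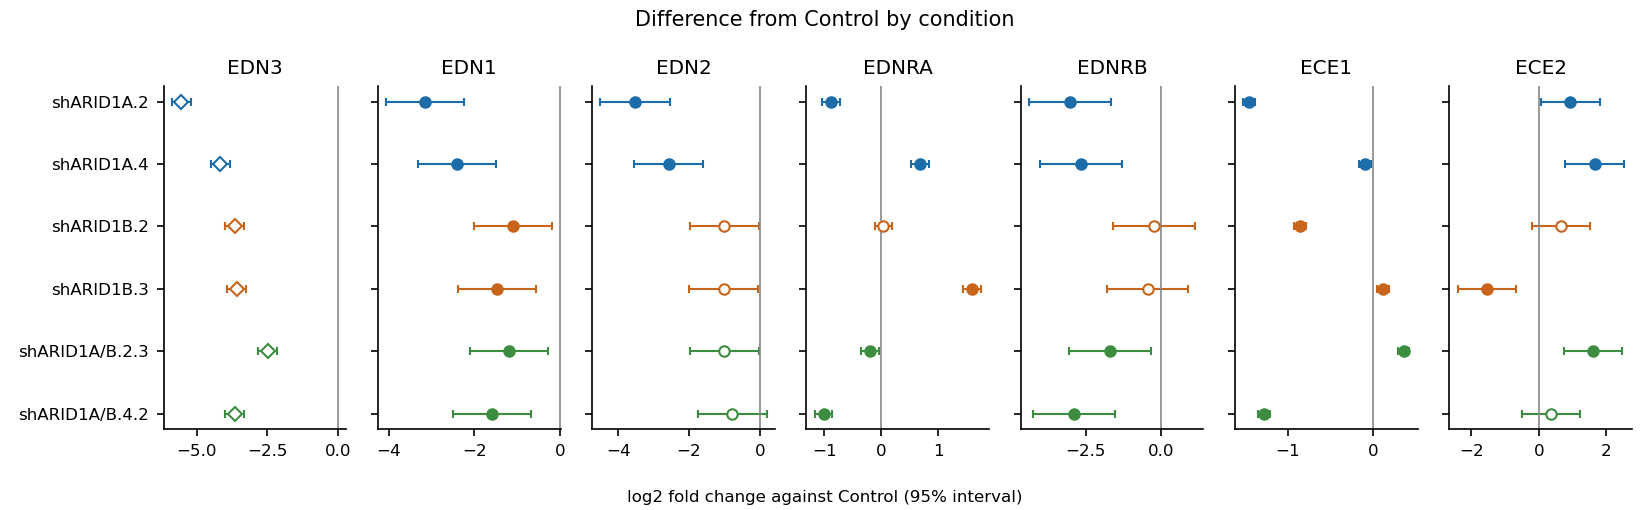
Log2 fold change against Control for the 7 genes (columns) in the 6 silenced conditions (rows), with 95% intervals from limma. Filled points passed an adjusted p of 0.05 and open circles did not. EDN3 is drawn as open diamonds, described without a test, from -5.53 to -2.48. EDNRA and ECE1 lie on both sides of 0.

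Between labels, all 7 genes differed between the libraries labelled shARID1A and shARID1B, beside 67.3% of all genes tested, with only ECE2 higher in the former (1.73 ± 0.30, limma adjusted p = 1.4e-05). Of the 7 genes 5 differed between the libraries labelled shARID1A and shARID1A/B (59.2% of all genes), and 5 between those labelled shARID1A/B and shARID1B (70.2%). Within labels, 10 of 21 pairs were called, beside 75.8% of genes in shARID1A, 66.0% in shARID1B and 74.9% in shARID1A/B. With each label as 1 group, 5, 3 and 2 of the genes differed in the 3 comparisons of labels. That fit called far fewer genes, from 1731 to 6511 of the 18584 tested per comparison, those with Control included.

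**Figure D4:**
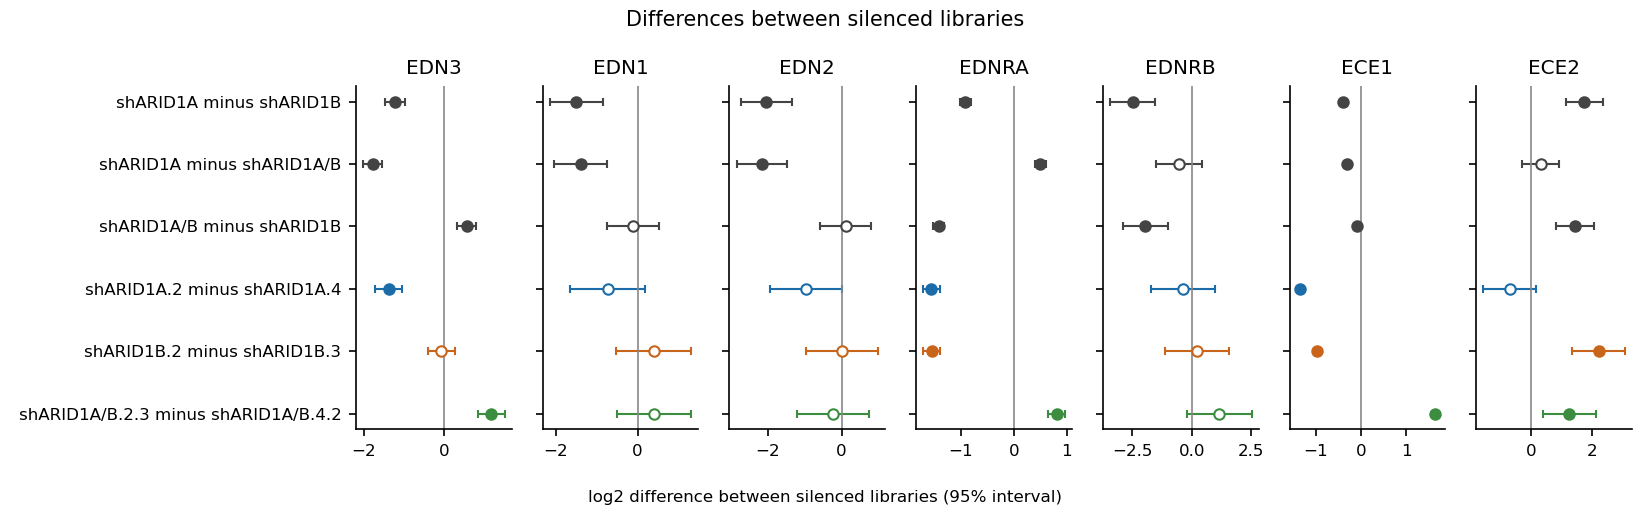
Log2 differences between silenced libraries for the 7 genes (columns), with 95% intervals from limma. The upper 3 rows compare labels (6 libraries against 6) and the lower 3 the conditions of 1 label (3 against 3). Filled points passed an adjusted p of 0.05. EDN3, EDN1 and EDN2 lie below 0 in the upper 2 rows.

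Per kilobase of merged exon, EDN3 was the highest of the genes in Control with 662 ± 19.5 normalized reads (SD, n = 3), above ECE1 (360 ± 12.3) and EDNRA (153 ± 2.21). EDN2 (13.1 ± 1.0), ECE2 (12.7 ± 0.91) and EDN1 (12.0 ± 1.73) overlapped, and EDNRB was lowest at 2.5 ± 1.0. The order of the ligands in Control was thus EDN3 far above EDN1 and EDN2, and that of the receptors EDNRA far above EDNRB.

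The genes whose levels followed EDN3 most closely over the 21 libraries were VASH1 (Pearson r = 0.987), HEG1 (0.982), DUSP7 (0.981), TGFBI (0.966) and PDLIM3 (0.966). VASH1 encodes an inhibitor of angiogenesis, HEG1 a membrane protein of endothelial junctions, DUSP7 a MAP kinase phosphatase, TGFBI a matrix protein and PDLIM3 an actin-associated protein. Over the 18 silenced libraries alone r was 0.960 for VASH1, 0.962 for HEG1, 0.938 for DUSP7, 0.911 for TGFBI and 0.880 for PDLIM3. For EDN1 the closest were ALYREF (0.907), EVA1A (0.894), CCAR2 (0.890), DKK1 (0.888) and HS3ST3A1 (0.873). Over the 18 silenced libraries their r was 0.876, 0.832, 0.852, 0.824 and 0.786 in that order. EDN1 had only 1 to 24 reads per library, and CCAR2 changed by only -0.24 to -0.06 against Control. These are descriptions, since libraries of 1 condition resemble each other and Control stands apart from the rest.

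Around the members, genes that process or break down endothelins showed a varied picture. Of 11 tested genes in this list of 14, 4 were higher and 1 lower in at least 4 of the 6 silenced conditions, against 24.8% and 26.6% of all genes. FURIN, which cuts the endothelin precursors, was 688 ± 10 normalized reads in Control (SD, n = 3) and from 809 to 2014 in the silenced libraries, and rose in all 6 conditions (log2 fold change 0.28 to 1.54). CTSA, a peptidase that degrades endothelin, rose in all 6 (0.13 to 0.96), and PCSK6, a furin-like convertase, in 5. ACE, which makes another vasoconstrictor peptide, angiotensin II, was 6579 ± 240.0 in Control and from 2552 to 5582 in the silenced libraries, and fell in all 6 (-1.34 to -0.25).

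Among 26 genes of signalling below the receptors, 14 (53.8%) were lower and 6 (23.1%) higher in at least 4 conditions, beside 26.6% and 24.8% of all genes. ITPR1, a calcium channel of the endoplasmic reticulum, was 8417 ± 92.5 in Control and from 1797 to 5504 in the silenced libraries, and ITPR3, of the same family, was 438 ± 29.04 in Control and from 98.9 to 361 in the silenced libraries. Both fell in all 6 conditions. GNAO1, a G protein subunit (0.34 to 1.12), and GRK5, a receptor kinase (0.24 to 1.43), rose in all 6. Over the list the median log2 fold change ran from -0.52 in shARID1A.2 to -0.09 in shARID1A/B.2.3, beside medians of all genes from 0.01 to 0.02.

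The neural crest genes around EDN3 and EDNRB had 14 tested members of 19. Of these 7 (50%) were lower and 1 (7.14%) higher in at least 4 conditions, beside 26.6% and 24.8% of all genes. RET, the receptor kinase that acts with EDNRB in enteric neurons, was 30665 ± 731 normalized reads in Control and from 2049 to 18268 in the silenced libraries, and fell in all 6 conditions (-3.89 to -0.76). ZEB2, a transcription factor of the same lineage, fell in all 6 (-1.64 to -0.38), and ERBB3 fell in 4 from a Control level of 13.9 ± 1.32. Of the craniofacial genes linked to EDN1 and EDNRA, 8 of 11 were tested, with 2 lower and 2 higher in at least 4 conditions. These shares of 25% each were close to those of all genes, 26.6% lower and 24.8% higher. HAND2 fell in all 6 (-1.70 to -0.17) and MSX1 in 4, and DLX5 and HAND1 rose in 5.

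All 18 regulators of EDN1 transcription were tested, and 10 (55.6%) were lower and 3 (16.7%) higher in at least 4 conditions. Of all genes, 26.6% were lower and 24.8% higher, shares that are not matched to the lists for expression level. HIF1A, the hypoxia factor, was 16810 ± 460 in Control and fell in all 6 (-1.51 to -0.10). JUN, an AP-1 subunit, fell in 5 and rose in 1, FOS, its partner, fell in 4 and rose in 2, and NFKB1 fell in 4. Of 5 related receptors only GPR37 and GRPR were tested, and neither was called in the same direction in 4 conditions.

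Markers of neuroblastoma cell states moved as well. Of the 8 mesenchymal markers 7 were tested, and 6 were lower and none higher in at least 4 conditions (85.7% lower, beside 26.6% of all genes). The authors had named LOXL2, SNAI2, CDH11 and NOTCH2 as repressed in these data, and the lists were chosen with earlier results known. This share is therefore a description only. LOXL2, a matrix cross-linking enzyme (-2.83 to -1.64), and CDH11, a cadherin (-2.64 to -0.50), fell in all 6, YAP1, a transcriptional coactivator, in 5 and SNAI2, a transcription factor, in 4. Summed over the list, the level ran from 69668 to 72114 normalized reads in Control, from 41064 to 41342 in shARID1A.4 and from 74075 to 75960 in shARID1A.2, a sum in which VIM was the largest part. Of the 8 adrenergic markers 4 (50%) were lower and 1 (12.5%) higher in at least 4 conditions, beside 26.6% and 24.8% of all genes. ISL1 fell in all 6 (-1.22 to -0.34), and DBH, the enzyme that makes noradrenaline, fell in 4 and rose in 2. GATA3 rose in all 6 (0.12 to 0.61), and MYCN fell in 3 and rose in 3. The part of these changes in the results for the endothelin genes was not tested.

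**Figure D5:**
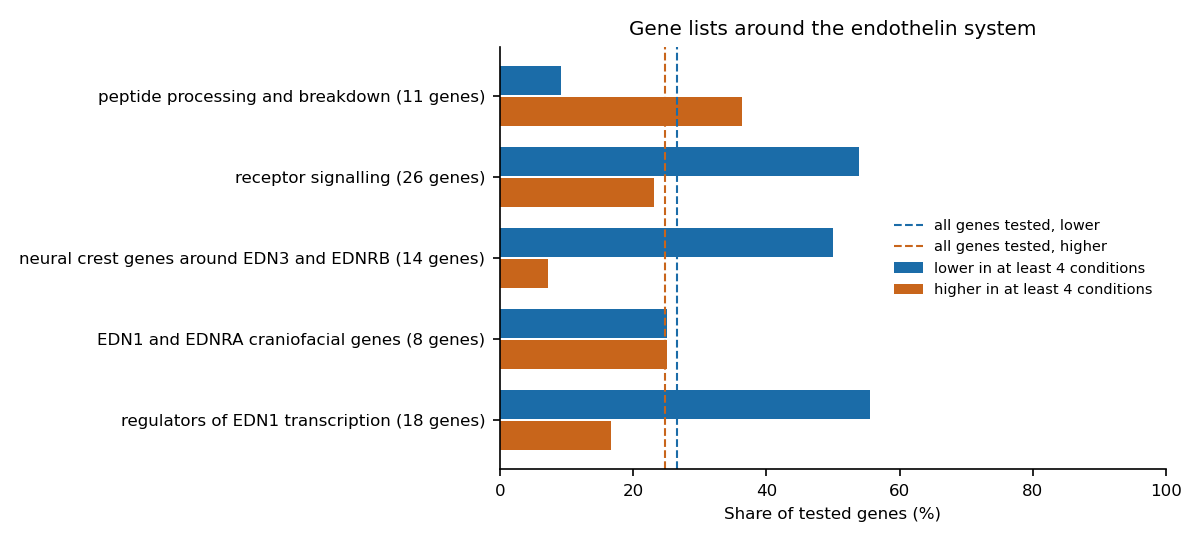
Share of tested genes of each list called lower or higher than Control in at least 4 of the 6 silenced conditions (limma, adjusted p of 0.05). Dashed lines give the same shares over all genes tested, 26.6% lower and 24.8% higher. Of the 5 lists drawn, receptor signalling, neural crest and EDN1 regulator genes lie to the right of the line for lower genes.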

How the data were processed

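The members and gene lists were chosen with earlier results of these data known. The unit of the deposited values is a signal, made by the authors by dividing reads by a size factor for each library (0.841 to 1.29). Per the labels, libraries came from a stranded mRNA kit. The submitters' processing notes name STAR 2.5.3a, RSEM 1.3.0, DESeq2 1.26.0 and GRCh38, without their roles. Another 3 deposited files hold the fold changes and p-values of the authors, and were not used. Whole reads were recovered for 100% of values (within 0.1 read), 27954334 to 41077638 per library.

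Since the unit is a scaled signal, limma 3.58.1 with a trend was fitted to log2 of the value plus 1, over 7 conditions and 21 libraries in R 4.3.3, for 18584 genes that passed filterByExpr of edgeR (minimum 10 reads). All 7 members passed. EDN1 reached the cutoff in 8 libraries (5 of them silenced), EDN2 in 10 (7 silenced) and EDNRB in 6 (4 silenced, all labelled shARID1B). No library labelled shARID1A reached it for these genes, so each was tested only through groups where it was higher. P-values were adjusted over all genes tested by the Benjamini-Hochberg method at 0.05. Fold changes on this scale understate the change of low genes. Counting intervals are exact (Clopper-Pearson).

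Named genes are the 7 members, the targeted and overlapping genes, up to 4 genes per list called in the same direction in at least 4 of 6 conditions by largest mean change, and the 5 genes closest to EDN3 and to EDN1 by correlation with a mean of at least 50. Some genes that this rule names are not reported here. Alternatives were edgeR 4.0.16, DESeq2 1.42.0, other scalings, pseudocounts and filters, label groups, the compared libraries alone, a replicate block and each library left out. Replicate pairs differed beyond sampling noise (chi-square per degree of freedom 1.55 to 4.26 over 21 pairs), so each counted as 1 library. The fit was tested on simulated data. Sequences are from GENCODE 29 and RefSeq.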

Additional observations from a re-analysis of the deposited data

Results flagged for a closer look

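Effects that differed between silenced groups were flagged by limma's test of the difference itself, on the log2 scale, without Control. Libraries labelled shARID1A minus those labelled shARID1B gave -1.22 for EDN3, -2.03 for EDN2, -1.50 for EDN1, -2.49 for EDNRB, 1.73 for ECE2, -0.40 for ECE1 and -0.91 for EDNRA. Libraries labelled shARID1A minus those labelled shARID1A/B gave -1.78 for EDN3, -2.15 for EDN2, -1.39 for EDN1, -0.31 for ECE1 and 0.51 for EDNRA. Libraries labelled shARID1A/B minus those labelled shARID1B gave 0.55 for EDN3, -1.95 for EDNRB, 1.43 for ECE2, -0.09 for ECE1 and -1.42 for EDNRA.

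The conditions of 1 label also differed. The difference of shARID1A.2 from shARID1A.4 was -1.38 for EDN3, -1.36 for ECE1 and -1.55 for EDNRA. That of shARID1B.2 from shARID1B.3 was 2.20 for ECE2, -0.97 for ECE1 and -1.55 for EDNRA. That of shARID1A/B.2.3 from shARID1A/B.4.2 was 1.16 for EDN3, 1.25 for ECE2, 1.63 for ECE1 and 0.81 for EDNRA. Without shARID1B.3 replicate 2, at 4.75 normalized reads, the ECE2 difference of 2.20 was 1.27, and with the read-through gene added it was 1.54. The ECE2 difference between the last conditions was lost without shARID1A/B.4.2 replicate 2 (limma adjusted p = 0.059).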

How the results depend on the processing

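Over all alternatives 1497 values were recomputed, of which 1409 were scored as unchanged, 51 lost and 26 gained a call, 8 moved and 3 reversed. Unchanged values kept their side of the threshold, and calls their direction, but a value without a call in either fit could change sign. EDN3 against Control was instead scored by its distance from the main value, relative to the SD between libraries. With each label as 1 group, the pairs lower than Control were 12 and those higher 0, 3 genes differed between the libraries labelled shARID1A and shARID1A/B and 2 between those labelled shARID1A/B and shARID1B. Each condition then takes its label's value, which reversed EDNRA in shARID1A.4 (-0.10), ECE1 in shARID1B.3 (-0.38) and ECE1 in shARID1A/B.2.3 (-0.46). Over all genes, calls per comparison were 1731 to 6511 in place of 11000 to 14142. With at least 10 reads in every library, EDN1, EDN2, EDNRB and ECE2 were not tested, which left 7 pairs lower, 4 higher and 3 genes in each comparison of labels. Leaving out each library gave 16 to 23 pairs lower, 5 to 9 higher, 7 to 7 genes between shARID1A and shARID1B, 5 to 6 between shARID1A and shARID1A/B, 5 to 5 between shARID1A/B and shARID1B, and 9 to 12 pairs within labels. Scaling to total reads shifted all genes against Control by up to 0.19 on the log2 scale (shARID1A/B.4.2) and the share of lower calls to between 35.2% and 61.4%, from 48.6% to 51.9%. Replicate numbers did not pair the libraries (correlations of -0.03 to 0.03 over 21 pairs of conditions, 6 of 21 libraries closest to their own number). With the replicate block all 84 of 84 values were scored as unchanged, with 20 pairs lower and 7 higher. EDN1, EDN2 and EDNRB are limited by depth, with 3 to 43 reads per silenced condition.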
